A study of Mus musculus with 5 samples.

Results

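The collagens other than type IV are the protein-coding genes whose symbol is Col, a number, a and a number, without Col4a1 to Col4a6. They comprised 38 of the 27843 genes counted. Their mRNA was measured in lymphatic endothelial cells (LECs), which line the lymph-filled sinuses and vessels of lymph nodes, from 8-week-old C57BL/6 mice. Knockout mice (2 libraries) had the genotype Ccl19 Cre Rankl flox/flox, in which a Cre driven by Ccl19 removes RANKL, a cytokine of the tumour necrosis factor family, from stromal cells rather than from the sorted LECs. Controls (3 libraries, labelled WT) were Rankl flox/flox animals without the Cre, so both groups carry the floxed allele. Cells lacking CD45 and TER119 and bearing CD31 and podoplanin were sorted, and the groups were compared to find genes that stromal RANKL regulates in them. The design text calls the controls littermates, but no label ties a library to a litter or gives the number of mice behind it, so p-values measure the spread between these 5 libraries.

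Collagens are secreted or membrane proteins built of 3 chains wound into a triple helix of Gly-X-Y repeats. Fibrillar collagens such as types I, III and V form the ropes of interstitial matrix. FACIT collagens (fibril-associated, with interrupted triple helices) coat those fibrils, beaded-filament type VI links them to cells, and the multiplexins XV and XVIII sit in basement-membrane zones and carry heparan or chondroitin sulphate. In lymph nodes, reticular fibroblasts are the main makers of fibrillar collagen, which they lay down as conduits. LECs rest on a basement membrane and a thin layer of such matrix.

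The targeted gene Tnfsf11, which encodes RANKL, had 9 and 0 reads in knockouts and 27, 13 and 9 in controls, too few in these cells to check the deletion, which was made in other cells. Total counts were 53301671 and 59725200 in knockouts 1 and 2 and 52839375 to 70171307 in the 3 controls. Summed over 10 markers of lymphatic endothelium, the level was 10990 to 12490 CPM (counts scaled to library size, with TMM factors) in knockouts and 10510 to 11620 CPM in controls, and none of the 10 was at 0. Single markers differed: Mmrn1 (log2 fold change 1.56) and Sox18 (0.91) rose, and Prox1, the lymphatic identity factor, fell by 0.75 ± 0.11 on the log2 scale (SE, edgeR adjusted p = 0.019). Lyve1 was lower in both knockouts (2440 and 3662 CPM) than in any control (4320 to 4716 CPM), at a log2 fold change of -0.57 (edgeR adjusted p = 0.11). Mmrn1 stood at 5027 and 3055 CPM in knockouts and 1127 to 1705 CPM in controls, so the sum holds changes in opposite directions. DESeq2 called 2 of the 10 higher and 2 lower. The part of these markers in the collagen results was not tested. Of 11 measured fibroblast markers, 0 rose and 0 fell by edgeR, 3 were higher and 0 lower at an unadjusted p under 0.05 (Dcn, Lox and Fbln1), and DESeq2 called 1 higher. The sum over the 11 was 769 and 370 CPM in knockouts 1 and 2 and 270, 373 and 294 CPM in controls 1, 2 and 3. The collagen-binding proteoglycan gene Dcn made up most of that sum. Without Dcn and the cross-linking enzyme gene Lox the sums were 65.4 and 24.9 CPM in knockouts and 38.9 to 51.8 CPM in controls. Smooth muscle and pericyte markers summed to 171 and 135.5 CPM in knockouts and 104 to 141 CPM in controls, with 2 of 10 that rose by edgeR. At an unadjusted p under 0.05, 5 of these 10 were higher and 0 lower, and DESeq2 called 4 higher and 0 lower. Leukocyte markers summed to 19.9 and 26.5 CPM in knockouts and 20.1 to 29.6 CPM in controls, and 1 of 8, Csf1r, fell (log2 fold change -2.58, edgeR adjusted p = 0.038). Of 10 blood endothelial markers 8 rose (Apln was at 0 in knockout 2), with a median log2 fold change of 1.37 over the 10. The sum over the 10 was 2980 and 3865 CPM in knockouts and 2544 to 2872 CPM in controls. Plvap, which did not pass (log2 fold change 0.25), made up most of that sum, at 2786 and 3627 CPM in knockouts and 2455 to 2808 CPM in controls. The sum therefore says little about the 8 that rose. In a sorted pool, fewer cells of a type and less mRNA per cell cannot be told apart.

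Levels between genes were compared as RPKM, that is CPM divided by the kilobases of annotated exon. Col18a1, whose protein carries endostatin at its end, stood highest in knockouts, at 75.2 and 41.6 RPKM in knockouts 1 and 2, against 20.4, 33.3 and 25.1 RPKM in controls 1, 2 and 3. Col12a1, a FACIT chain, was highest in controls. It had 17.7 and 20.5 RPKM in knockouts, against 33.6, 29.0 and 31.7 RPKM in controls, and the groups did not overlap. Its FACIT relative Col14a1 had 12.9 and 22.3 RPKM in knockouts, against 30.6, 22.3 and 30.2 RPKM in controls. In controls the libraries of Col12a1, Col14a1 and Col18a1 overlapped, so their order there lies within the spread, while in knockouts both Col18a1 values lay above every Col12a1 and Col14a1 value. Below them the mean level was 15.4 ± 8.95 RPKM in knockouts (SD, n = 2) and 8.85 ± 5.82 RPKM in controls (SD, n = 3) for Col3a1. Col16a1 averaged 5.69 ± 0.18 RPKM in knockouts and 9.01 ± 0.0889 RPKM in controls. Libraries of 1 group lay far apart for Col3a1, while every Col16a1 library stayed near its group mean. In knockouts the libraries of Col12a1, Col14a1 and Col3a1 overlapped. Col23a1 averaged 8.33 ± 4.00 RPKM in knockouts and 4.38 ± 0.505 RPKM in controls, Col6a4 2.78 ± 0.703 RPKM in knockouts and 4.46 ± 1.25 RPKM in controls, and Col15a1 2.67 ± 1.28 RPKM in knockouts and 4.31 ± 0.902 RPKM in controls. In controls the libraries of Col23a1, Col6a4 and Col15a1 overlapped, so their order there lies within the spread. Between 13 and 16 of the 38 members reached 1 RPKM in a library. The lowest members were the cartilage collagen Col2a1, with 1 read in knockout 2 and 0 elsewhere, and Col25a1, a transmembrane collagen, with 6 and 5 reads in knockouts and 16, 0 and 0 in controls.

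**Figure D1:**
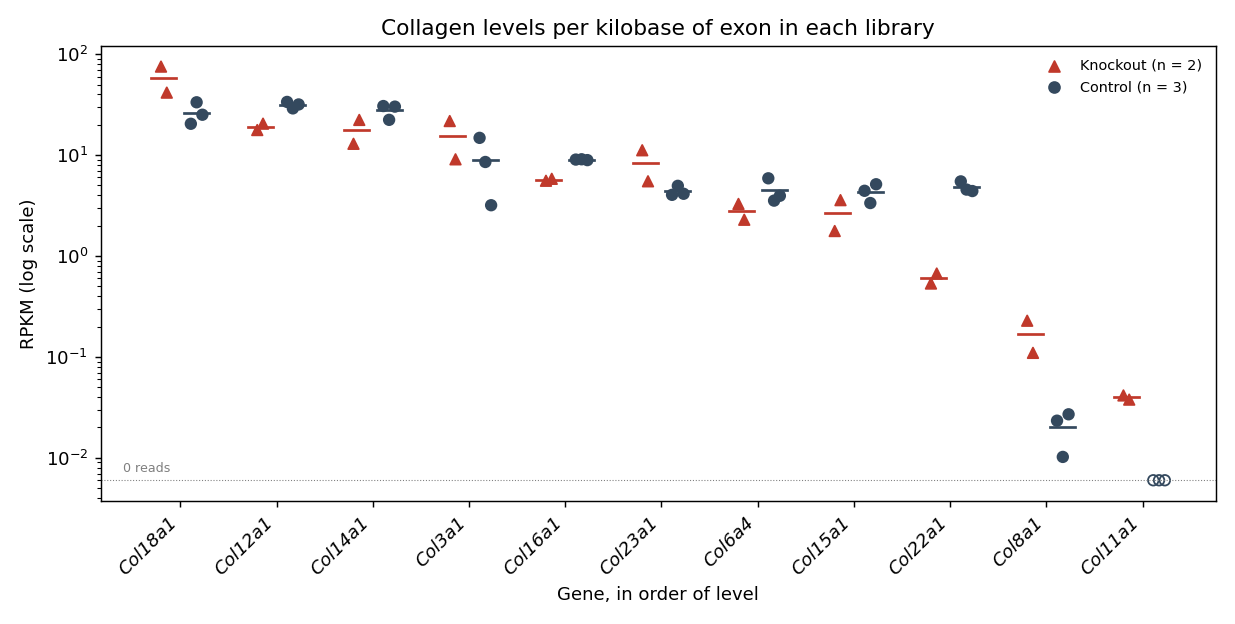
RPKM on a log axis for the 8 members with the highest level and the members that passed the test, 1 point per library (triangles, 2 knockouts; circles, 3 controls) with a line at each group mean. Col22a1 sits at 0.534 and 0.670 RPKM in knockouts and 4.40 to 5.49 RPKM in controls; open circles at the foot mark the 3 controls with 0 reads of Col11a1.

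The 34 members with enough reads were tested within a fit of all genes (edgeR quasi-likelihood with Benjamini-Hochberg adjustment over 15874 genes, threshold 0.05). Col22a1, Col12a1 and Col16a1, which are all FACITs, fell, and Col8a1 and Col11a1 rose. These 5 are 14.7% of the tested members, against 7.24% of all tested genes. Col11a1 entered the test only through its knockout reads, and without it 4 of 33 passed, or 12.1%, with 1 that rose. The 2 that rose compare with 3.25% of all genes and the 3 that fell with 3.99%. In 12 of the 34 both knockout libraries lay on 1 side of all controls, which is 35.3%, against 45.4% of all genes. Of these, 6 lay above the controls, as did 22.9% of all genes, and 6 below, as did 22.5%. Those above include Col11a1 and also Col9a2, which entered the test through its knockout reads as well. The counts by class and list below can be read against those of all genes, of which 12.8% were higher and 13.6% lower at an unadjusted p under 0.05, and 7.9% higher and 9.24% lower by DESeq2 at an adjusted p under 0.05. The median log2 fold change, knockout minus control, was 0.10 over the members, also with Col11a1 at its lower bound, and -0.0015 over all genes. With a control library left out, 266, 173 and 11 of all genes passed without controls 1, 2 and 3, against 1150 with all libraries, and of these 5 members 2, 1 and 1 passed. Without knockout 1, 1736 genes passed. Col22a1 passed in each of those fits. The remaining 4 members, Col2a1, Col9a1, Col10a1 and Col25a1, had too few reads to test, with 0 to 16 reads in any library.

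**Figure D2:**
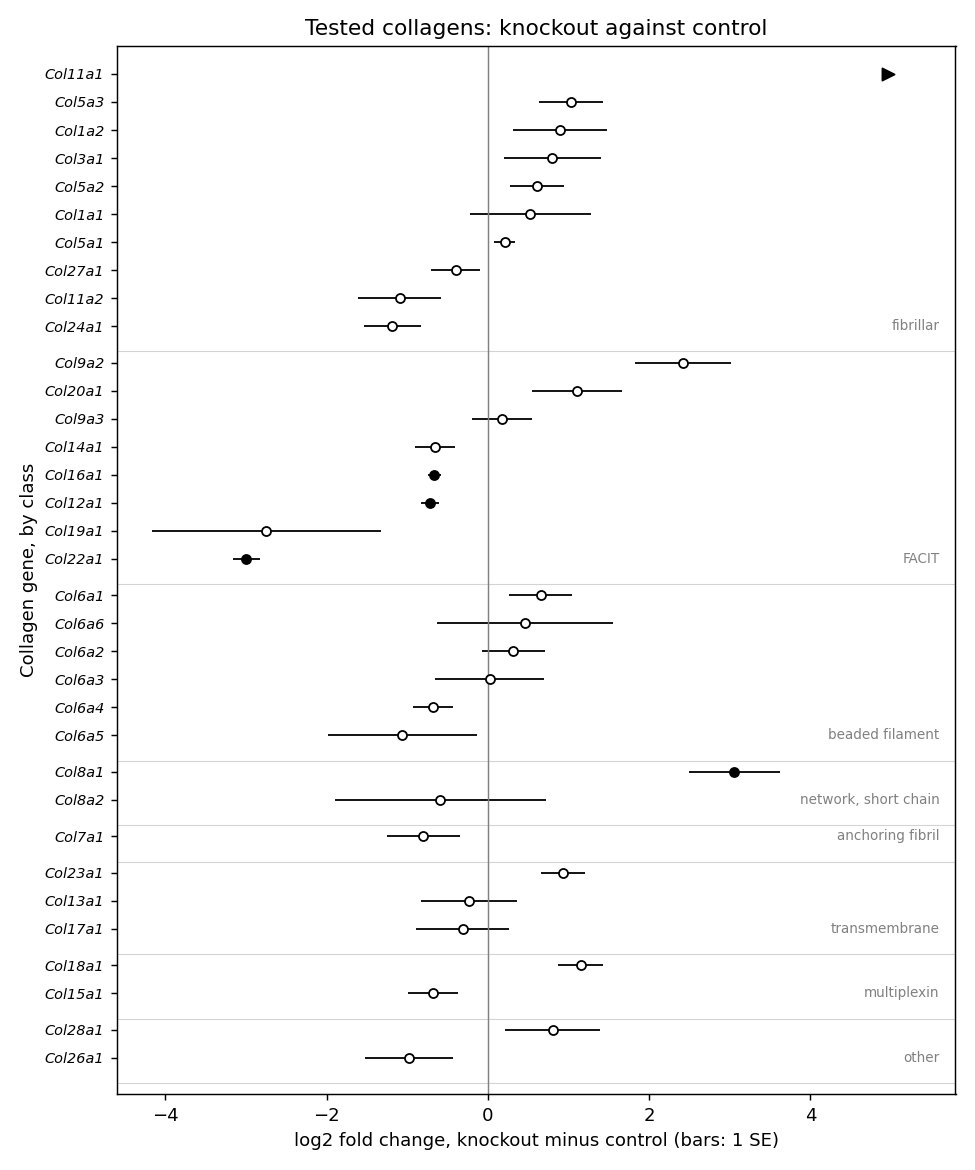
Log2 fold change, knockout minus control, of the 34 tested members by class, with bars of 1 SE. Filled symbols passed the adjusted p of 0.05; the triangle for Col11a1, with 0 reads in controls, is a lower bound of 4.96, and Col22a1 lies farthest left among them at -3.00.

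Among the FACITs, 0 of 8 tested members rose and 3 fell by edgeR, with a median log2 fold change of -0.66. At an unadjusted p under 0.05, 1 was higher and 4 were lower, and DESeq2 called 1 higher and 4 lower. The largest fall was in Col22a1, known from tissue junctions such as that of muscle and tendon. It had 269 and 359 reads in knockouts 1 and 2, against 3587, 2614 and 2105 reads in controls 1, 2 and 3. Both knockout libraries lay far below every control, and the log2 fold change was -3.00 ± 0.17 (SE, edgeR adjusted p = 0.0076). It held between -3.18 and -2.80 in every alternative fit, with adjusted p of 0.06 under the replicate number as a block and under 0.05 otherwise. By level per kilobase, Col22a1 ranked 17 of 38 in knockouts, against 6 of 38 in controls.

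Col12a1, which binds the surface of type I fibrils, fell by 0.72 ± 0.11 on the log2 scale (SE, edgeR adjusted p = 0.021). It had 14761 and 18139 reads in knockouts and 25124 to 36370 in controls. The adjusted p was 0.063, 0.06 and 0.1 without controls 1, 2 and 3, and 0.095 at a log2 fold change of -0.48 once exon length and GC were entered as an offset. The members have a median of 7321 exon bases and all tested genes 4117. Col16a1, a minor FACIT of many connective tissues, stood at 37.6 and 39.3 CPM in knockouts and 60.9, 61.4 and 60.2 CPM in controls, with little spread within either group. It fell by 0.66 ± 0.08 (SE, edgeR adjusted p = 0.013). It missed the threshold without control 2 (adjusted p = 0.057) and without control 3 (adjusted p = 0.081). Col14a1 had a log2 fold change of -0.65 ± 0.25 (SE, edgeR adjusted p = 0.15), and it passed without knockout 2 (-1.10) and with DESeq2. Its knockout 2 and control 2 levels were nearly equal, at 156.3 and 156.6 CPM.

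Per kilobase the other tested FACITs stood below Col12a1, Col14a1 and Col16a1 in every library. Col9a2, a chain of the cartilage FACIT type IX, had 61 and 43 reads in knockouts and 21, 6 and 6 in controls, a log2 fold change of 2.42 ± 0.60 (SE, edgeR adjusted p = 0.058) with no overlap between groups. It passed the filter on low counts through the knockouts, since among the controls only control 1 had enough reads. Fits by limma-voom, by DESeq2 and on unfiltered counts called it. Its partner chains differed from it: Col9a3 had 42 and 79 reads in knockouts and 69, 57 and 49 in controls, and Col9a1 had 5 and 2 reads in knockouts and 6 to 9 in controls. Col20a1 had 539 and 952 reads in knockouts and 801, 167 and 220 in controls, so that control 1 lay between the knockouts. Col19a1 had 0 and 2 reads in knockouts and 13, 1 and 10 in controls. Summed over the class, FACIT levels were 39.2 and 53.0 RPKM in knockouts and 81.3, 65.8 and 76.4 RPKM in controls, and the groups did not overlap. Col12a1, Col14a1, Col16a1 and Col22a1 made up most of that sum, and for each of these 4 both knockouts lay below all controls. The separation of the sum follows from them and is no separate result about the class, in which Col9a2 and Col20a1 had positive log2 fold changes.

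Neither multiplexin passed by edgeR (1 higher and 0 lower at an unadjusted p under 0.05, 1 higher by DESeq2). Col18a1 stood at 528 and 292 CPM in knockouts, against 143, 234 and 176 CPM in controls, a log2 fold change of 1.15 ± 0.28 (SE, edgeR adjusted p = 0.057). Both knockouts lay above all controls, and the value depended on knockout 1. The log2 fold change was 0.66 without it (adjusted p = 0.16) and 1.51 without knockout 2 (adjusted p = 0.023). It passed with the length and GC offset (1.29, adjusted p = 0.042), with a filter of 1 CPM in 2 libraries (adjusted p = 0.045) and with DESeq2 (adjusted p = 0.00052). Col15a1, its close relative, had 11.2 and 22.7 CPM in knockouts and 28.1, 21.3 and 32.6 CPM in controls, a log2 fold change of -0.69 ± 0.31 (SE, edgeR adjusted p = 0.22), and its groups overlapped. It passed without knockout 2 (-1.29).

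As a share of the summed RPKM of all 38 members, Col18a1 made up 41.4% and 32.1% in knockouts 1 and 2 and 13.5%, 24.8% and 19.6% in controls 1, 2 and 3. Col12a1 made up 9.75% and 15.8% in knockouts and 21.6% to 24.8% in controls. The ratio of Col18a1 to Col12a1, chosen after the values were seen, was 4.25 and 2.03 in knockouts and 0.607, 1.15 and 0.791 in controls. Each of the 2 genes alone had separated the groups, so the ratio had to as well and no test of it is given. The pool as a whole did not separate the groups, with a sum of 181.6 and 129.4 RPKM in knockouts and 151.5, 134.5 and 128.3 RPKM in controls. The members took 0.154% and 0.107% of all counts in knockouts and 0.116% to 0.142% in controls.

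**Figure D3:**
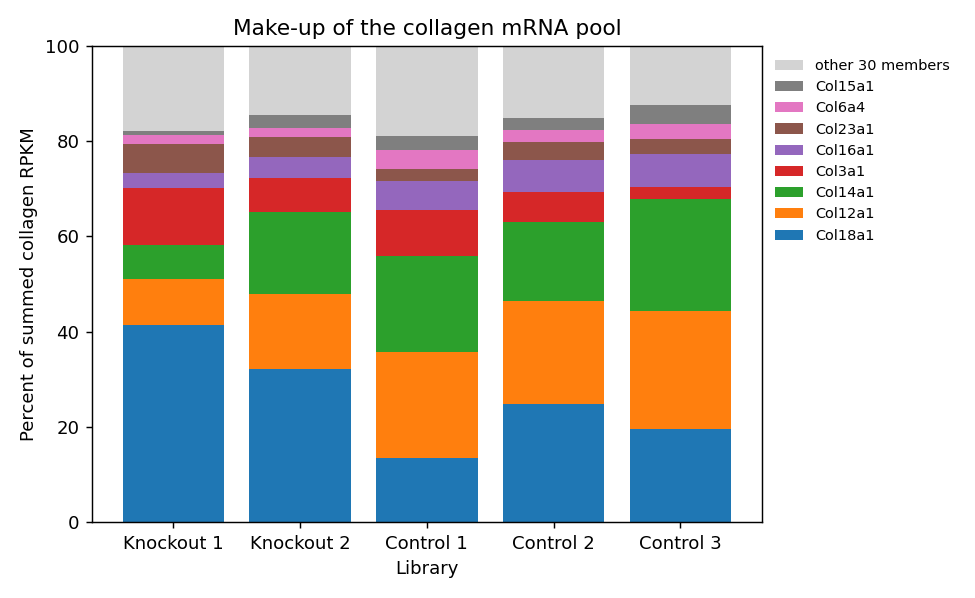
Share of the summed RPKM of all 38 members held by the 8 members with the highest level (stacked bars, percent, 1 bar per library). The Col18a1 segment is 41.4% and 32.1% in the knockouts and 13.5% to 24.8% in the controls, while Col12a1 is 9.75% and 15.8% in the knockouts and 21.6% to 24.8% in the controls.

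Of 10 tested fibrillar collagens, Col11a1 rose and 0 fell by edgeR (2 higher and 1 lower at an unadjusted p under 0.05; DESeq2, where Col11a1 had no adjusted p, called Col5a3 higher and Col24a1 lower). The median log2 fold change was 0.57. Col11a1, a chain of cartilage fibrils, had 29 and 28 reads in knockouts and 0 reads in each control. Taking 3 counts as the floor of all controls together, it was at least 31.2-fold higher in knockouts (edgeR adjusted p = 0.025). The level was low, at 0.0415 and 0.0378 RPKM in knockouts. It passed the filter on low counts through the knockouts alone, and its adjusted p was 0.057 to 0.081 with a control left out. Its partner chain Col11a2 had 19 and 41 reads in knockouts and 47, 90 and 67 in controls, with a log2 fold change of -1.10 ± 0.52 (SE, edgeR adjusted p = 0.23).

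The interstitial fibre genes Col1a1, Col1a2 and Col3a1 varied more between libraries of 1 group than between groups. Col3a1 had 11683 and 5183 reads in knockouts and 10327, 5234 and 1625 in controls. Col1a1 had 2355 and 424 reads in knockouts and 1875, 1186 and 352 in controls, and Col1a2 had 3920 and 1583 in knockouts and 3137, 1511 and 578 in controls. In each of the 3 genes knockout 1 was highest, control 1 next and control 3 lowest. Log2 fold changes were 0.53 ± 0.75 for Col1a1, 0.89 ± 0.58 for Col1a2 and 0.80 ± 0.60 for Col3a1 (SE, edgeR adjusted p = 0.71, 0.38 and 0.45). Without knockout 1 they were -1.26, 0.03 and 0.03. Several fibroblast markers were highest in knockout 1 too, but Ccl19, Cxcl13, Lum and Lox were not. In control 1, where the 3 collagen genes were next highest, Dcn, Fbln1 and Thy1 were at their lowest. Dcn stood at 692 and 332 CPM in knockouts and 217, 325 and 234 CPM in controls, and the receptor gene Pdgfra at 3.69 and 1.56 CPM in knockouts and 1.87, 1.65 and 1.54 CPM in controls. The fibril proteoglycan gene Lum was highest in control 1, at 4.82 and 1.07 CPM in knockouts and 6.43, 6.22 and 2.85 CPM in controls. The smooth muscle gene Acta2 was at 35.8 and 4.50 CPM in knockouts and 1.76 to 1.94 CPM in controls. Its log2 fold change (3.44) was the largest of the 10 smooth muscle and pericyte markers, of which 7 were positive and 3 negative. Kcnj8 of the same list also rose (log2 fold change 0.69, edgeR adjusted p = 0.029). Tagln and Des were higher in both knockouts than in any control but did not pass (edgeR adjusted p = 0.082 and 0.091). The pericyte gene Rgs5 was lower in both knockouts (43.8 and 48.1 CPM) than in controls (48.5 to 74.8 CPM) and did not pass either (edgeR adjusted p = 0.34). Of the 11 fibroblast markers only Mfap5 was at 0 in a library, knockout 2. The part of fibroblast or smooth muscle RNA in these levels was not tested. Nor was that of blood endothelial RNA in any collagen result.

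**Figure D4:**
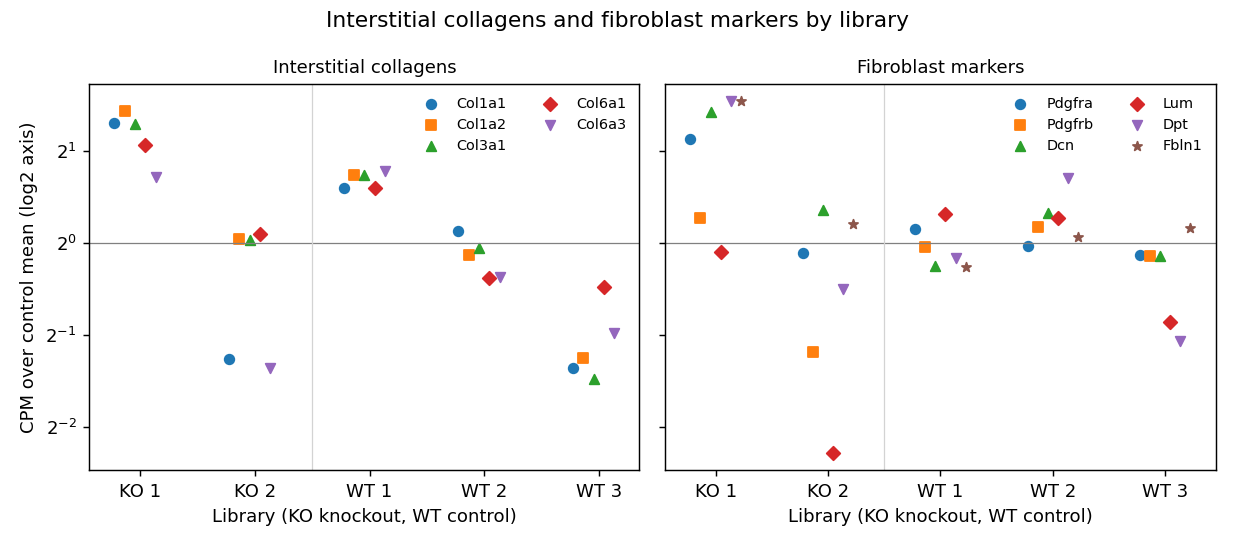
CPM divided by the control mean (vertical axis, log2 scale) for 5 interstitial collagens (left) and 6 fibroblast markers (right), 1 point per gene and library, knockouts left of controls. Knockout 1 and control 1 stand high for the 5 collagens, and so does knockout 1 for Pdgfra, Dcn, Dpt and Fbln1. Dcn and Fbln1 are lowest in control 1, and Lum is at 4.82 CPM in knockout 1, against 2.85 to 6.43 CPM in controls. The genes were chosen after their values were seen.

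Of the chains of type V collagen, which nucleates fibrils, Col5a1 varied least between libraries. Col5a1 had 26.6 and 21.6 CPM in knockouts and 21.6, 21.8 and 19.0 CPM in controls, a log2 fold change of 0.21 ± 0.13 (SE, edgeR adjusted p = 0.35). Col5a2 had 25.7 and 12.4 CPM in knockouts and 10.7, 16.6 and 10.2 CPM in controls, so its groups overlapped. Col5a3 had 20.0 and 16.3 CPM in knockouts and 14.6, 5.81 and 6.08 CPM in controls, without overlap, a log2 fold change of 1.03 ± 0.40 (SE, edgeR adjusted p = 0.16) that reached 1.61 without control 1 (adjusted p = 0.031). Of the fibrillar types XXIV and XXVII, Col24a1 had 76 and 46 reads in knockouts and 140, 180 and 134 in controls (log2 fold change -1.18 ± 0.35, SE, edgeR adjusted p = 0.09), and Col27a1 had 177 and 390 in knockouts and 442, 410 and 359 in controls. Col24a1 passed without knockout 1 (-1.65, adjusted p = 0.041) and Col27a1 without knockout 2 (-1.03).

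Chains that share a trimer were set against each other per kilobase. The lengths merge all annotated exons, with 6563 bases for Col1a1, 12426 for Col1a2, 4380 for Col6a1 and 8326 for Col6a2. They affect the size of a ratio but scale it alike in every library, so a ratio does not give the balance of chains. The ratio of Col1a1 to Col1a2, whose chains join in the type I trimer, was 1.138 and 0.507 in knockouts and 1.13, 1.49 and 1.15 in controls, with knockout 2 the lowest. Col5a1 to Col5a2 was 1.17 and 1.97 in knockouts and 2.27, 1.49 and 2.11 in controls. Col6a1 to Col6a2 was 4.25 and 4.87 in knockouts and 4.16, 2.54 and 3.82 in controls. Col6a1 to Col6a3 was 7.08 and 15.35 in knockouts and 4.92, 5.56 and 7.96 in controls. Exact two-sided permutation tests of these 4 ratios gave p = 0.4, 0.4, 0.2 and 0.4, and 0.2 is the smallest possible.

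Of the 6 type VI chains, 0 rose and 0 fell by edgeR, with 0 higher and 1 lower at an unadjusted p under 0.05 and by DESeq2. Col6a1 had 1112 and 607 reads in knockouts and 1046, 466 and 364 in controls. Col6a2 had 497 and 237 in knockouts and 478, 348 and 181 in controls, and Col6a3 had 429 and 108 in knockouts and 581, 229 and 125 in controls. These 3 chains, which make the classical type VI trimer, were high in knockout 1 and control 1, as the interstitial genes were. Col6a4, an alternative to the Col6a3 chain, was the most abundant type VI member in controls, with 1532 and 1134 reads in knockouts and 3565, 1883 and 1751 in controls. All knockouts were below all controls, at a log2 fold change of -0.68 ± 0.25 (SE, edgeR adjusted p = 0.15), and DESeq2 called it (adjusted p = 0.048). Col6a5 and Col6a6, the other alternative chains, had 5 to 31 reads in knockouts and 4 to 69 in controls.

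Col8a1, a short-chain collagen of vessel walls and the corneal basement membrane, rose. It had 98 and 50 reads in knockouts 1 and 2, against 13, 5 and 11 reads in controls 1, 2 and 3. Both knockouts were above all controls, with a log2 fold change of 3.05 ± 0.56 (SE, edgeR adjusted p = 0.029). The level stayed low, at 0.228 and 0.110 RPKM in knockouts and 0.0102 to 0.0270 RPKM in controls. It was 2.43 without knockout 1 on the log2 scale (adjusted p = 0.06), and the adjusted p was 0.087, 0.086 and 0.1 without controls 1, 2 and 3. Its partner chain Col8a2 had 40 and 0 reads in knockouts and 37, 59 and 9 in controls. Col10a1, the short-chain collagen of growth-plate cartilage, had 2 and 1 reads in knockouts and 5, 3 and 7 in controls. Col7a1, which forms the anchoring fibrils of skin, had 27 and 52 reads in knockouts and 113, 75 and 43 in controls, and its groups overlapped.

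Of the transmembrane collagens, 0 of 3 tested passed by edgeR (1 higher at an unadjusted p under 0.05). Col23a1 was by far the most abundant, at 64.0 and 31.5 CPM in knockouts and 23.2, 28.4 and 23.7 CPM in controls. Its log2 fold change was 0.93 ± 0.27 (SE, edgeR adjusted p = 0.086), 0.32 without knockout 1 and 1.35 without knockout 2 (adjusted p = 0.0036), and DESeq2 called it (adjusted p = 0.0085). Col13a1, known from neuromuscular junctions, had 27 and 106 reads in knockouts and 138, 56 and 65 in controls. Col17a1, the hemidesmosome collagen, had 109 and 33 reads in knockouts and 163, 67 and 72 in controls. In both, the knockouts lay apart from each other and on either side of at least 1 control. Col26a1 had 24 and 61 reads in knockouts and 69, 140 and 62 in controls, and Col28a1 had 64 and 46 in knockouts and 71, 20 and 18 in controls.

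Promoter windows are shown for the 3 of the 5 changed members that the RefSeq table holds and for Col18a1, the member with the highest level in knockouts, which has 2 start sites there. The windows run from 250 bases before to 50 after the start site, on the gene's strand, 5′ to 3′ (RefSeq, GRCm38.p6). Capitals mark matches, on either strand, to the GC box GGGCGG, the TATA box TATAAA, the CCAAT box, the AP-1 motif TGANTCA and the NF-kB motif (GGG, any 3 bases, then TTCC), whose letters were narrowed after matches to a looser form had been seen. The table gave 33 windows for 30 of the 38 members. Col22a1 and Col12a1 are named only.
Col8a1 (chr16:57754688-57754987, minus strand): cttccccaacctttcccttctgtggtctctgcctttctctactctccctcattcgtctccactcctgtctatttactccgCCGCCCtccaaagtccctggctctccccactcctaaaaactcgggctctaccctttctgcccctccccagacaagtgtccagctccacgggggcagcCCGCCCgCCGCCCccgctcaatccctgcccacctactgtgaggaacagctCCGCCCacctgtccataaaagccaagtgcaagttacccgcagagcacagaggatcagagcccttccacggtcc
Col11a1 (chr3:114030290-114030589, plus strand): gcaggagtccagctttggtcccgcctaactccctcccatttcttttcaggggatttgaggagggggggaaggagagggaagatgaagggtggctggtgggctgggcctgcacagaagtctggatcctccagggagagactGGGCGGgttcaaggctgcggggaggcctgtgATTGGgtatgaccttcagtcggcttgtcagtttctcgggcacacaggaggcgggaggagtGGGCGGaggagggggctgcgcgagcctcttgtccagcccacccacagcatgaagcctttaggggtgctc
Col16a1 (chr4:130047590-130047889, plus strand): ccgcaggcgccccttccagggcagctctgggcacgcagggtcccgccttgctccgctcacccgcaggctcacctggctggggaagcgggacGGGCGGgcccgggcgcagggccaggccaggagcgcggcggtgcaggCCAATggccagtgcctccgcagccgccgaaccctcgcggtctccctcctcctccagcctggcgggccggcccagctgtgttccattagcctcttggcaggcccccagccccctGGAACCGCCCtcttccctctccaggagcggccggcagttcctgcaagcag
Col18a1, upstream start (chr10:77166481-77166780, minus strand): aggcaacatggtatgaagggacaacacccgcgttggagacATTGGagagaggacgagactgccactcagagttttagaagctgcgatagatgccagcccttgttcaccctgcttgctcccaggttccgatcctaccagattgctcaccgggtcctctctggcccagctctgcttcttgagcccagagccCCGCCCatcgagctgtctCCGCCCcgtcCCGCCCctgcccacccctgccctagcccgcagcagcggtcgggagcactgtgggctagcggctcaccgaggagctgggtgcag
Col18a1, downstream start (chr10:77113656-77113955, minus strand): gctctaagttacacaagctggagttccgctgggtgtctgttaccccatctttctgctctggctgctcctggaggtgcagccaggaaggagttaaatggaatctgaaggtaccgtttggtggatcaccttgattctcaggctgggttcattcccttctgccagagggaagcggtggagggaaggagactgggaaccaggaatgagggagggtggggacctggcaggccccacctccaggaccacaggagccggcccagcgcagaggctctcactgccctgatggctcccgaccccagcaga
The Col8a1 window held 4 GC boxes and no other match, and the Col11a1 window held 2 GC boxes and 1 CCAAT box. Col16a1 held 2 GC boxes, 1 CCAAT box and 1 NF-kB match, which shares bases with a GC box just after the start site. The upstream Col18a1 window held 3 GC boxes and 1 CCAAT box, and the downstream one held no match to any of the 5 motifs. Of all 32851 promoter windows, 35.7% held a GC box, 13.6% a TATA box, 37.4% a CCAAT box, 7.81% an AP-1 match and 5.56% an NF-kB match. Counts per gene pool reads from both Col18a1 start sites.

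Several members lie next to each other in the genome (mm10). Col3a1 (chromosome 1, 45311538 to 45349706) and Col5a2 (45374321 to 45503282) are adjacent, and their mRNAs were highest in knockout 1. Col6a1 (chromosome 10, 76708792 to 76726168) lies near Col6a2 (76595762 to 76623630), and both were highest in knockout 1. Members on other chromosomes were highest there too, such as Col1a1 (chromosome 11), Col1a2 (chromosome 6) and Col5a1 (chromosome 2). A peak in knockout 1 was thus not particular to neighbours. Col6a4 (chromosome 9, 105989454 to 106096783), Col6a5 (105856078 to 105960643) and Col6a6 (105687809 to 105828160) stand in a row, with Col6a4 at 2.29 to 5.89 RPKM and its neighbours at 0.00699 to 0.117 RPKM over all libraries. Col22a1 (chromosome 15, 71795795 to 72034227), Col12a1 (chromosome 9, 79598991 to 79718831), Col16a1 (chromosome 4, 130047840 to 130099283), Col8a1 (chromosome 16, 57624258 to 57754737) and Col11a1 (chromosome 3, 114030540 to 114220718), the 5 that changed, lie on 5 chromosomes. Another annotated gene overlaps 0.174% of the Col22a1 exon bases, and none overlaps the exons of the other 4.

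Genes that modify, export, cut, cross-link or bind collagen were counted by list. Of all tested genes 3.25% rose and 3.99% fell by edgeR. Of 15 genes for hydroxylation and glycosylation of the chains, 1 rose and 0 fell (edgeR, 1 and 0 also at an unadjusted p under 0.05 and by DESeq2), with a median log2 fold change of -0.04. It was P4ha2, a catalytic subunit of collagen prolyl 4-hydroxylase, at 44.2 and 40.0 CPM in knockouts and 18.9, 23.0 and 24.9 CPM in controls. Its log2 fold change was 0.92 ± 0.13 (SE, edgeR adjusted p = 0.019), with adjusted p of 0.064 without control 2 and 0.075 without control 3. The main catalytic subunit gene P4ha1 had a log2 fold change of 0.10 ± 0.16. Of 10 genes for folding and export 0 passed by edgeR (2 lower at an unadjusted p under 0.05 and by DESeq2, median -0.05). The COPII coat gene Sec24d had a log2 fold change of -0.33 ± 0.08 (SE, edgeR adjusted p = 0.051), and the export receptor gene Mia3 -0.31 ± 0.09 (adjusted p = 0.071).

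Of 7 measured propeptide cleavage genes 0 passed by edgeR (1 higher and 2 lower at an unadjusted p under 0.05, 2 lower by DESeq2, median 0.23). The tolloid-like protease gene Tll1 was at -0.56 ± 0.15 (SE, edgeR adjusted p = 0.064) and its enhancer gene Pcolce at -0.49 ± 0.15 (adjusted p = 0.092). Of 5 cross-linking enzymes 0 passed by edgeR (2 higher and 2 lower at an unadjusted p under 0.05, 1 and 1 by DESeq2, median 0.02). Lox stood at 11.8 and 13.8 CPM in knockouts and 6.83, 8.79 and 8.12 CPM in controls (log2 fold change 0.69 ± 0.16, SE, edgeR adjusted p = 0.051), and Loxl4 at 36.3 and 45.1 CPM in knockouts and 54.0 to 55.8 CPM in controls (-0.44 ± 0.11, adjusted p = 0.062). Of 10 fibril-associated proteoglycan and Sparc genes 0 passed by edgeR (2 higher at an unadjusted p under 0.05, 1 by DESeq2, median 0.37), with Dcn at 0.98 ± 0.31 (SE, edgeR adjusted p = 0.099) and Prelp at 0.48 ± 0.16 (adjusted p = 0.11).

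Of 8 tested collagen receptors, 0 rose and 2 fell by edgeR (1 higher and 3 lower at an unadjusted p under 0.05 and by DESeq2), with a median log2 fold change of 0.08. Itga1, the alpha chain of the collagen-binding integrin alpha1 beta1, had 111 and 101 CPM in knockouts, against 224, 242 and 226 CPM in controls. It fell by 1.12 ± 0.09 on the log2 scale (SE, edgeR adjusted p = 0.0095), and missed the threshold without control 3 (adjusted p = 0.065). Ddr2, a receptor tyrosine kinase that fibrillar collagens activate, had 49.7 and 52.9 CPM in knockouts and 77.3, 66.7 and 82.6 CPM in controls. Its log2 fold change was -0.56 ± 0.11 (SE, edgeR adjusted p = 0.037). That call was lost without controls 1, 2 and 3 and without knockout 1 (adjusted p = 0.1, 0.061, 0.14 and 0.057), and with the length and GC offset (-0.41, adjusted p = 0.11).

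Beside these, the 6 type IV collagens of the basement membrane had 0 members that rose and 2 that fell by edgeR (1 higher and 2 lower at an unadjusted p under 0.05, 0 and 2 by DESeq2), with a median log2 fold change of -0.20. Col4a5 and Col4a6 were those that fell, by 1.26 ± 0.11 and 2.18 ± 0.19 on the log2 scale (SE, edgeR adjusted p = 0.0095 and 0.0096), and both missed the threshold without control 3. The difference between the 2 sets of collagens was not tested.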

How the data were processed

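Raw read counts per Ensembl gene in 5 libraries were deposited by the authors, per the file headers. Per the labels' protocols, SMART-Seq v4 cDNA (10 cycles, 4 ng total RNA) was tagmented with Nextera XT from 600 pg (12 cycles) and read as single 50-base reads. The kits mark neither strand nor molecule. HTSeq 0.6.1, Bowtie2 2.1.0, TopHat2 2.0.14, bcl2fastq 2.17.1.14 and the mm10 build are named in the submitters' processing notes. Settings, and what was done with multiply mapped reads, are not given in the sources used.

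Of 27843 gene IDs, 27648 matched GENCODE M21 (same build), which gave symbols, exon lengths and positions. The tests used edgeR 4.0.16 under R 4.3.3 (filterByExpr with minimum count 10, TMM, robust quasi-likelihood F test, Benjamini-Hochberg adjustment over all genes), checked on simulated counts. Each SE was taken as the absolute log2 fold change over the root of its F statistic. CPM and RPKM use TMM-scaled library totals and merged exon lengths. Members, lists, classes and alternatives were chosen with earlier results of these data known. Named are all members, the list genes that passed and otherwise up to 2 per list with the smallest p. P4ha1, the Col18a1 promoter, the ratio of Col18a1 to Col12a1 and the fibroblast and muscle markers named beside the interstitial collagens were chosen after their values were seen. Alternatives were RLE factors, library totals, other filters, DESeq2 1.42.0, limma-voom (limma 3.58.1), a threshold of 0.1, an exon length and GC offset (loess span 0.5), a replicate block and leaving out each library.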

Additional observations from a re-analysis of the deposited data

How the results depend on the processing

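Col22a1 kept its direction in every alternative and its call in all but the replicate block. The knockout and control libraries share only numbers 1 and 2. Deviations from the group mean gave r = 0.0477 between the libraries numbered 1 and -0.0515 between those numbered 2. With 2 knockouts these deviations mirror each other, so r with control 1 was 0.0477 for knockout 1 and -0.0477 for knockout 2. The check therefore cannot tell whether the numbers pair the libraries. A fit with the number as a block also has less spread left to test against, so missing calls in it can reflect low power. With the replicate number as a block, 0 genes passed in either direction (1245 higher and 1563 lower at an unadjusted p under 0.05), 0 collagens, 0 fibrillar, 0 FACIT, 0 type IV, 0 hydroxylation and 0 receptor genes passed, and the medians were -0.38 for the collagens, -0.22 for propeptide, 0.19 for cross-linking and -0.24 for receptor genes. Under the block Col1a1 (-0.32), Col6a2 (-0.0051) and Col6a3 (-0.51) turned negative, Col6a3 also with limma-voom (-0.22).

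DESeq2 called 1254 genes higher and 1466 lower, and 5 collagens higher and 6 lower. By class or list it called 1 fibrillar lower, 1 FACIT higher, 1 beaded filament lower, 1 transmembrane higher, 2 export lower, 2 propeptide lower, 1 cross-linking higher and 1 lower, 1 proteoglycan higher and 1 receptor higher. A threshold of 0.1 gave 1188 genes higher and 1358 lower, and 5 collagens higher and 4 lower. At that threshold 1 fibrillar was lower, 1 FACIT and 1 transmembrane higher, 2 export and 2 propeptide genes lower, 1 cross-linking gene higher and 1 lower, and 1 proteoglycan and 1 receptor higher. With the length and GC offset 346 genes fell, 1 propeptide gene rose and 1 receptor fell. Without a low-count filter 1 FACIT rose, 1 propeptide gene fell, and 1 cross-linking gene rose and 1 fell. With 1 CPM in 2 libraries 1 collagen, Col18a1, and 0 fibrillar members rose. Col8a1 and Col11a1 did not reach this filter, so they were not tested under it. With the same filter 1 export gene fell, 1 cross-linking gene rose, and medians were -0.48 for propeptide, -0.16 for cross-linking and -0.55 for receptor genes. With limma-voom 1 FACIT and 1 cross-linking gene rose, and the receptor median was -0.29. The causes were not tested.

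Leaving out 1 library gave 2 to 784 genes higher and 9 to 1125 lower, 0 to 4 collagens higher and 1 to 6 lower, 0 to 1 fibrillar higher and 0 to 1 lower, and 1 to 4 FACITs lower. It gave 0 to 1 transmembrane, hydroxylation, propeptide, cross-linking and receptor genes higher, 0 to 2 proteoglycans higher, 0 to 1 export, propeptide and cross-linking genes lower, 0 to 3 receptors lower and 0 to 2 type IV lower. Medians ran from -0.27 to 0.40 for collagens, 0.027 to 1.10 for fibrillar, -0.77 to -0.47 for FACIT, -0.92 to 0.74 for beaded filament, -0.46 to 0.38 for transmembrane, -0.065 to 0.084 for hydroxylation, -0.086 to 0.0014 for export, -0.42 to 0.33 for propeptide, -0.19 to 0.14 for cross-linking, 0.26 to 0.54 for proteoglycan, -0.26 to 0.25 for receptor and -0.67 to 0.44 for type IV genes. Members that turned sign ranged from -1.26 to 1.30 (Col1a1), -0.0171 to 1.03 (Col5a2), -0.38 to 0.78 (Col6a2), -1.37 to 0.71 (Col6a3), -1.50 to 0.28 (Col6a5), -1.44 to 1.24 (Col6a6), -8.07 to 0.40 (Col8a2), -0.30 to 0.52 (Col9a3), -1.47 to 0.41 (Col13a1), -1.49 to 0.32 (Col17a1) and -1.03 to 0.0253 (Col27a1, which passed at -1.03 without knockout 2). The others passed in none of these fits. With 1 knockout library the lone library is assumed to vary like the controls. Col8a1 and Col11a1 rest on fewer than 100 reads in each library.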
